A study of Mus musculus with 6 samples.

Results

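The circadian clock of brown adipose tissue (BAT) was followed through 10 genes: the activator Arntl, the repressors Per1, Per2, Cry1, Nr1d1, Nr1d2, Bhlhe40 and Bhlhe41, and the output factors Dbp and Nfil3. All 10 were found by gene symbol among the 25206 features of the arrays, each as 1 feature defined by its Entrez gene number. BAT was taken from 6 female mice labelled FoxP3 DTR B6, in which the regulatory elements of Foxp3 drive a receptor for diphtheria toxin (DT), so that the toxin kills cells in which Foxp3 is active. Both groups carried this allele: 3 mice were injected intraperitoneally with DT (DT 5, DT 9 and DT 16) and 3 with phosphate-buffered saline (PBS 12, PBS 18 and PBS 20) on 2 consecutive days. Before the injections each mouse lived alone at 22°C for 1 week; the room was cooled to 4°C once the first injection had been given, and tissue was taken after 2 days in the cold. A milder cold stands in the published methods, while the published results and figure legends give 4°C, as the labels do. The temperature of the labels was followed here. Per those methods the mice lived under alternating light and dark with free access to food and water, and were not fasted before they were killed. Neither the age of these mice nor the hour at which each was killed is stated in those sources. DT reaches Foxp3-expressing cells in the whole body and not only in BAT, and no array came from mice without the allele or from mice kept warm.

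The molecular clock is a feedback loop of transcription. ARNTL (BMAL1), with CLOCK or NPAS2, binds E-boxes and switches on the Per, Cry, Nr1d and Bhlhe40/41 genes, whose products then repress it: PER and CRY proteins block the activator, BHLHE40 and BHLHE41 (DEC1 and DEC2) compete at E-boxes, and the REV-ERB receptors NR1D1 and NR1D2 silence Arntl and Nfil3 through ROR elements. At the outputs, DBP and its relatives TEF and HLF activate genes through D-boxes, where NFIL3 (E4BP4) represses. In BAT the clock sets daily rhythms of fuel uptake and heat production, REV-ERB alpha is a known repressor of Ucp1 in mice, and the level of a clock gene depends on the time of day.

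The elements named above could be looked for in the stretch from 250 bases before to 50 bases after the annotated gene start, taken from RefSeq (build GRCm38.p6), which matched 8 of the 10 genes with 10 windows in all (2 each for Arntl and Per1). Both strands were searched for the E-box (CACGTG), the E-prime-box (CACGTT), the ROR element (TAGGTCA or TGGGTCA), the D-box (TTACGTAA or TTATGTAA) and the cAMP response element CRE (TGACGTCA). These letters were present in 7.15%, 4.68%, 6.45%, 1.06% and 1.79% of all 32851 windows. An E-box lay in the windows of Bhlhe41, Cry1 and Per1, an E-prime-box in those of Cry1 and Nr1d1, and a ROR element in those of Nfil3 and Arntl. Neither the D-box nor the CRE was found in the windows of these 8 genes, and the windows of Dbp and Nr1d2 held none of the 5. No matches overlapped. A match describes the letters only. The windows of the 3 genes that rose in DT mice, Nfil3, Bhlhe41 and Nr1d1, are shown with 1 of the 2 windows of Arntl and of Per1, chosen because it holds a match: a ROR element, as in Nfil3, at the downstream start of Arntl, and an E-box, as in Bhlhe41, at the upstream start of Per1. The window at the other annotated start of each gene held none of the 5 elements. Capitals mark the matches, and each run reads 5′ to 3′ on the strand of the gene.

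The windows lie at chr13:52980990-52981289 (minus strand) for Nfil3, chr6:145865371-145865670 (minus strand) for Bhlhe41, chr11:98775328-98775627 (minus strand) for Nr1d1, chr7:113207261-113207560 (plus strand) for Arntl and chr11:69098699-69098998 (plus strand) for Per1.
Nfil3: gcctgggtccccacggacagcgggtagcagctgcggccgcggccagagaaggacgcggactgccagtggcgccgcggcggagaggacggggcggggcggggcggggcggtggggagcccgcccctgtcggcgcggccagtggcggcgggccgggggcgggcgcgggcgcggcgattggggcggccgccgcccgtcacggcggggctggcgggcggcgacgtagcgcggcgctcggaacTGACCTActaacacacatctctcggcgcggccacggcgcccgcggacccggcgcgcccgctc
Bhlhe41: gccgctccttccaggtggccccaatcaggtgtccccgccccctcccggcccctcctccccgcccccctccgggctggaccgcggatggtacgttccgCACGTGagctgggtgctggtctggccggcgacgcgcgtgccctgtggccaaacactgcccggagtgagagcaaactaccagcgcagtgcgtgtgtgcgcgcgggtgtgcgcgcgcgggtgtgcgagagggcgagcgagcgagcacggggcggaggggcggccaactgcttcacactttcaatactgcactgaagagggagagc
Nr1d1: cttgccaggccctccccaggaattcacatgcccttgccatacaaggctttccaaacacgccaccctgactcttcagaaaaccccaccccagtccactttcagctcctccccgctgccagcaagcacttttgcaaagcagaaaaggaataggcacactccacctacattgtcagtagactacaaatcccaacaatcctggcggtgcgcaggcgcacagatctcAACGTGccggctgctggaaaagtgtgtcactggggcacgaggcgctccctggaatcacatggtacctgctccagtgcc
Arntl: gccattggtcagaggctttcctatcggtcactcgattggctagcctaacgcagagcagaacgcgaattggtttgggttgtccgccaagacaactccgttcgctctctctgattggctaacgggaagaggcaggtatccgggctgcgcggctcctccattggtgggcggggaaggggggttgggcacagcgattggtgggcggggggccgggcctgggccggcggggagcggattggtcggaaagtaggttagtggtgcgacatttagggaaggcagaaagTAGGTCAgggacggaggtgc
Per1: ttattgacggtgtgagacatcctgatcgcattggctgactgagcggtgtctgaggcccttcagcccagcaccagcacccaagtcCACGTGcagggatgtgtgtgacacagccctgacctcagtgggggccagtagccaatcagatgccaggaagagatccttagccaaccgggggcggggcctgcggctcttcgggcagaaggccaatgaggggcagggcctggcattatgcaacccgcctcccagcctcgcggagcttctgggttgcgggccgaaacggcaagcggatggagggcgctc

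Counted from the annotated start of the window shown, the ROR element of Nfil3 covered the bases from -12 to -6, on the opposite strand, and that of Arntl the bases from 31 to 37, which lie beyond the end of the window at its upstream start. The E-prime-box of Nr1d1 covered the bases from -28 to -23, also on the opposite strand, and the E-boxes of Bhlhe41 and Per1 began at -153 and -166, for Per1 counted from its upstream start.

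Values are log2 signals, on which a difference of 1 is a 2-fold change. Differences are DT minus PBS, with SD over n = 3 mice per group. A gene was called, or said to rise or fall, when its adjusted p was under 0.05 (limma, Benjamini-Hochberg over all 25206 features). Of the 10 clock genes, 3 were called and all 3 rose in DT mice: Nfil3, Bhlhe41 and Nr1d1. No clock gene was called lower. Among all features 1.73% were called (1.29% higher and 0.444% lower). The clock genes were chosen with earlier results of these data known, so the count of 3 of 10 is a description. The mice of the groups did not overlap in 4 clock genes, the 3 that rose and Bhlhe40, which was lower in DT mice without being called; 18.6% of all features had groups that did not overlap. At an unadjusted p under 0.05 stood 6 of the 10, beside 13.3% of all features. The median difference of the 10 genes was 0.32, against -0.01 over all features. All 10 had a mean signal above that of the median feature.

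**Figure D1:**
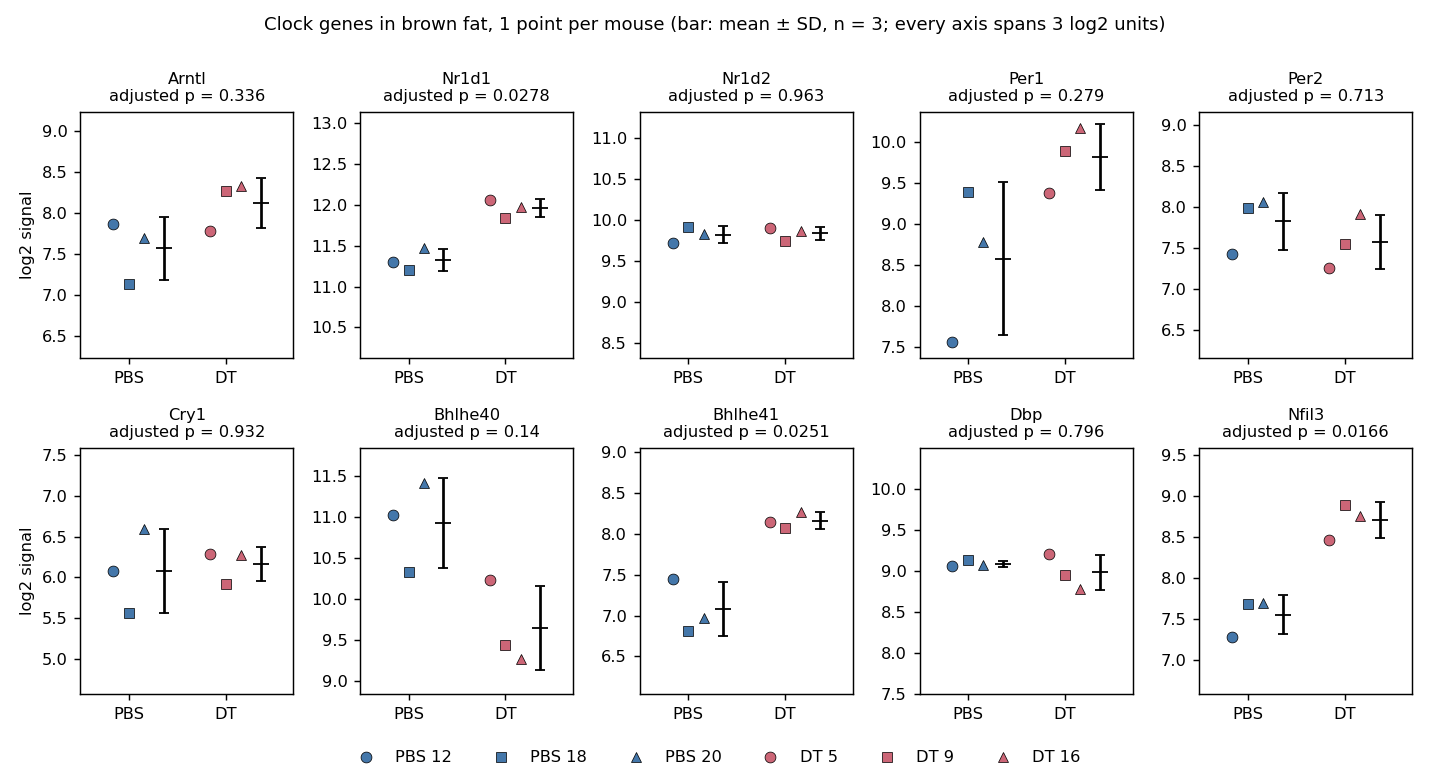
Log2 signal (vertical axes, each spanning the same number of log2 units) of the 10 clock genes in each mouse, PBS in blue and DT in red, with a symbol for each mouse and the mean ± SD of the group beside the points. Nfil3, Bhlhe41 and Nr1d1 have all DT mice above all PBS mice, Bhlhe40 has all DT mice below them, and the other 6 genes overlap.

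Nfil3 showed the clearest change of the output genes. This bZIP repressor of D-box genes is also an immune regulator, needed for the development of NK cells in mice. Its signal was 7.27 in PBS 12, 7.68 in PBS 18 and 7.69 in PBS 20, and 8.46 in DT 5, 8.89 in DT 9 and 8.76 in DT 16. The lowest DT mouse lay 0.77 above the highest PBS mouse. Nfil3 rose 2.22-fold (difference 1.15, SE 0.15, adjusted p = 0.0166). Dbp, the D-box activator whose targets Nfil3 represses, gave 9.06, 9.13 and 9.07 in PBS 12, PBS 18 and PBS 20 and 9.21, 8.96 and 8.79 in DT 5, DT 9 and DT 16. Its groups overlapped, with DT 5 above and DT 9 and DT 16 below every PBS mouse. The difference was -0.10 with a 95% interval from -0.37 to 0.16 (adjusted p = 0.796). Dbp shares 741 bases with Sphk2 in the annotation, and Sphk2 differed by -0.14 (adjusted p = 0.77).

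Bhlhe41 and Bhlhe40, paralogous E-box repressors, had differences of opposite sign, of which only that of Bhlhe41 was called. Bhlhe41 was at 7.45 in PBS 12, 6.82 in PBS 18 and 6.97 in PBS 20 and at 8.14, 8.07 and 8.27 in DT 5, DT 9 and DT 16. It rose 2.11-fold (difference 1.08, SE 0.16, adjusted p = 0.0251), and the DT mice lay within 0.20 of each other while the PBS mice spread over 0.63. Bhlhe40 was at 11.02 in PBS 12, 10.33 in PBS 18 and 11.42 in PBS 20 and at 10.23, 9.44 and 9.26 in DT 5, DT 9 and DT 16. The DT mice were all lower, though DT 5 lay only 0.10 under PBS 18. The difference of -1.28 (SE 0.33, 95% interval from -2.05 to -0.51) was not called (adjusted p = 0.14).

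Of the REV-ERB receptors, Nr1d1 was called and Nr1d2 was not; their difference in response is tested with the pairs. Nr1d1, which encodes REV-ERB alpha, was at 11.30 in PBS 12, 11.20 in PBS 18 and 11.47 in PBS 20 and at 12.06, 11.84 and 11.98 in DT 5, DT 9 and DT 16. It rose 1.55-fold (difference 0.64, SE 0.10, adjusted p = 0.0278), and the gap between the groups was 0.37. Nr1d1 shares 1075 bases with Thra in the annotation, and Thra differed by -0.10 (adjusted p = 0.721). Nr1d2, its paralog, was at 9.71 in PBS 12, 9.92 in PBS 18 and 9.82 in PBS 20 and at 9.90, 9.74 and 9.87 in DT 5, DT 9 and DT 16. The groups lay on top of each other, and the 95% interval of the difference ran from -0.18 to 0.22 (adjusted p = 0.963).

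The activator Arntl, a target of the REV-ERB receptors, was at 7.87 in PBS 12, 7.14 in PBS 18 and 7.70 in PBS 20 and at 7.78, 8.27 and 8.33 in DT 5, DT 9 and DT 16. Its difference of 0.55 (SE 0.22) had the same sign as that of Nr1d1, but was not called (adjusted p = 0.336) and the groups overlapped through DT 5. Arntl signal was lowest in PBS 18, without which the difference was 0.34; without DT 5 it was 0.73.

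The period and cryptochrome genes were not called. Per1, which besides its E-box control responds to cAMP and glucocorticoid signals, was at 7.55 in PBS 12, 9.39 in PBS 18 and 8.78 in PBS 20 and at 9.38, 9.89 and 10.17 in DT 5, DT 9 and DT 16. The groups met at PBS 18 and DT 5, and PBS 12 lay far below the other PBS mice. Per1 had the widest PBS range of the 10 genes, 1.83, and its difference of 1.24 (SE 0.44) was not called (adjusted p = 0.279). Without PBS 12 the difference of Per1 was 0.73, and without PBS 18 it was 1.65. Per2, its partner in the same repressor complex, was at 7.43, 7.99 and 8.06 in PBS 12, PBS 18 and PBS 20 and at 7.25, 7.54 and 7.91 in DT 5, DT 9 and DT 16 (difference -0.25, adjusted p = 0.713). Cry1, the cryptochrome that closes the loop, was at 6.08, 5.57 and 6.59 in PBS 12, PBS 18 and PBS 20 and at 6.29, 5.92 and 6.28 in DT 5, DT 9 and DT 16. Its DT mice all lay within the PBS range (difference 0.09, 95% interval from -0.49 to 0.66, adjusted p = 0.932). For 7 of the 10 clock genes the PBS mice ranged more widely than the DT mice, the exceptions being Per2, Dbp and Nfil3.

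Whether paralogs and antagonists differed in response was examined in 6 pairs through the difference of their log2 signals within each array (exact permutation test over the 20 relabelings of the 6 mice, 2-sided, Benjamini-Hochberg over the 6 pairs). With 3 mice against 3 the smallest p of this exact test is 0.1, so none of the pairs could pass 0.05. Bhlhe41 minus Bhlhe40 was between -4.44 and -3.52 in PBS mice and between -2.09 and -0.99 in DT mice, a shift of 2.36 (exact p = 0.1, adjusted 0.15). Per1 minus Per2 was between 0.13 and 1.40 in PBS mice and between 2.13 and 2.35 in DT mice, a shift of 1.49 (exact p = 0.1, adjusted 0.15). The DT mice all lay above the PBS mice in both pairs, as they did for Bhlhe41 alone. Neither Per1 nor Per2 was called alone. The pairs were chosen with earlier results of these data known, so their separation is a description.

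Nfil3 minus Dbp, the repressor set against the activator of D-boxes, was between -1.79 and -1.38 in PBS mice and between -0.75 and -0.03 in DT mice (shift 1.26, exact p = 0.1, adjusted 0.15). Nr1d1 minus Nr1d2 was between 1.28 and 1.64 in PBS mice and between 2.10 and 2.16 in DT mice (shift 0.62, exact p = 0.1, adjusted 0.15). The groups did not overlap in these 4 pairs, nor in Nfil3 and Nr1d1 alone. They did overlap for Nr1d1 minus Arntl (shift 0.08, exact p = 0.7, adjusted 0.7) and for Per2 minus Cry1 (shift -0.34, exact p = 0.6, adjusted 0.7).

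**Figure D2:**
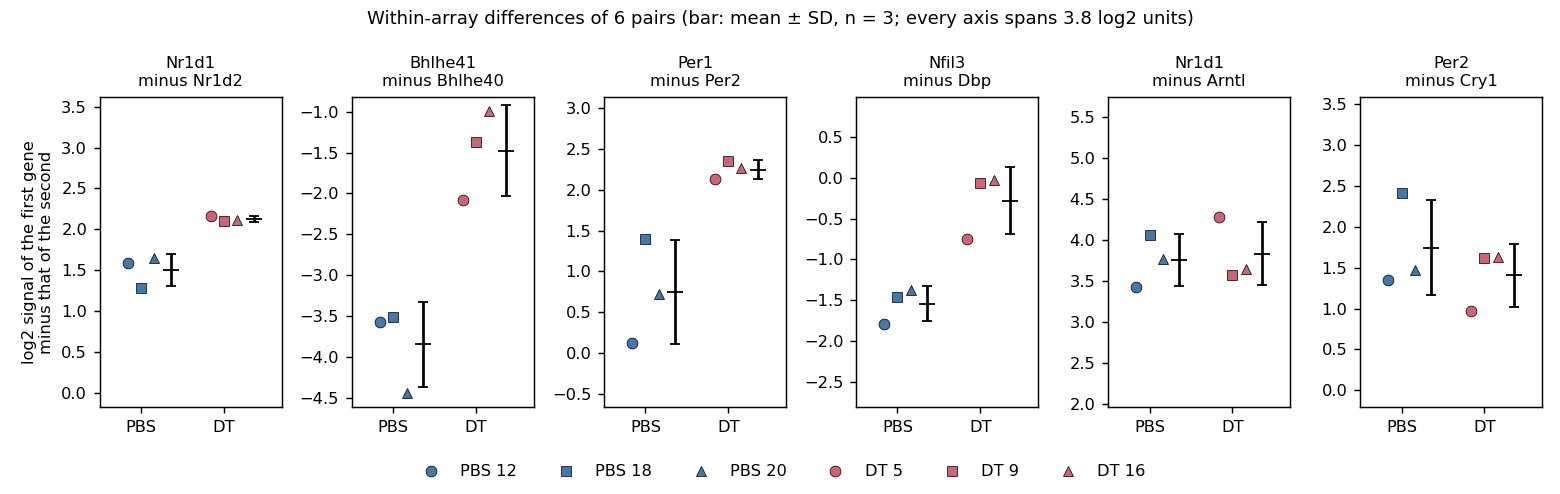
Difference of the log2 signals of 2 clock genes within each mouse (vertical axes, log2 units; only the change between groups is to be read, as the absolute level depends on the probes), with the mean ± SD of each group of 3. The DT mice lie above the PBS mice in the first 4 pairs, by 0.62 to 2.36 on average, and the groups overlap in the last pairs.

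A further 28 partners, regulators and outputs of the clock were analysed. None was called by limma, while 8 stood at an unadjusted p under 0.05, beside 13.3% of all features. Of these 8, 3 were higher (Ciart, Npas2 and Sirt1) and 5 lower (Per3, Tef, Cry2, Prkaa2 and Gsk3b) in DT mice. All DT mice lay above all PBS mice in 6 of the 28 and below them in 6. Among all features 18.6% had groups that did not overlap, in either direction. The median difference of the 28 was 0.02. Of the activator side, Npas2, the alternative partner of ARNTL, was at 5.55, 5.00 and 5.74 in PBS 12, PBS 18 and PBS 20 and at 5.92, 6.01 and 6.63 in DT 5, DT 9 and DT 16 (difference 0.76, adjusted p = 0.233). Its groups did not overlap. Clock itself differed by 0.13 (adjusted p = 0.543).

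Of the repressor side, Per3 came nearest to a call. It was at 7.38, 7.89 and 7.49 in PBS 12, PBS 18 and PBS 20 and at 6.98, 6.81 and 6.75 in DT 5, DT 9 and DT 16 (difference -0.74, SE 0.14, adjusted p = 0.0564). All DT mice were below all PBS mice. Its call depends on the setting: it passed with array weights (adjusted p = 0.0439) and without the dimmest features by mean signal (adjusted p = 0.0482). With any 1 mouse left out Per3 was not called. Per3 differed in the direction opposite to Per1, which was not called. The RefSeq window of Per3 holds 2 D-boxes. Timeless, which also has a D-box in its window, differed by -0.08 (limma, adjusted p = 0.7601). The part of these elements in the differences was not tested. Cry2 differed by -0.31 (adjusted p = 0.243). Ciart (CHRONO), a repressor of the ARNTL complex with 3 E-boxes in its window, was at 7.64, 8.34 and 8.70 in PBS 12, PBS 18 and PBS 20 and at 9.16, 9.15 and 9.21 in DT 5, DT 9 and DT 16. The DT mice were nearly equal and all higher (difference 0.95, adjusted p = 0.133). The deacetylase Sirt1, which acts on clock proteins, differed by 0.35 (adjusted p = 0.178).

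Among the D-box activators related to Dbp, Tef was at 8.29, 8.49 and 8.33 in PBS 12, PBS 18 and PBS 20 and at 7.91, 8.05 and 7.97 in DT 5, DT 9 and DT 16. Tef, which like Ciart holds E-boxes in its windows, was lower in every DT mouse (difference -0.39, SE 0.08) without passing the test (adjusted p = 0.082). Of the 23 other clock genes matched to a window, 4 held an E-box: Ciart, Klf15, Sirt1 and Tef. Klf15 differed by 0.43 (limma, adjusted p = 0.5182), and its groups overlapped. Hlf differed by -0.04 (95% interval from -0.25 to 0.17, adjusted p = 0.918).

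**Figure D3:**
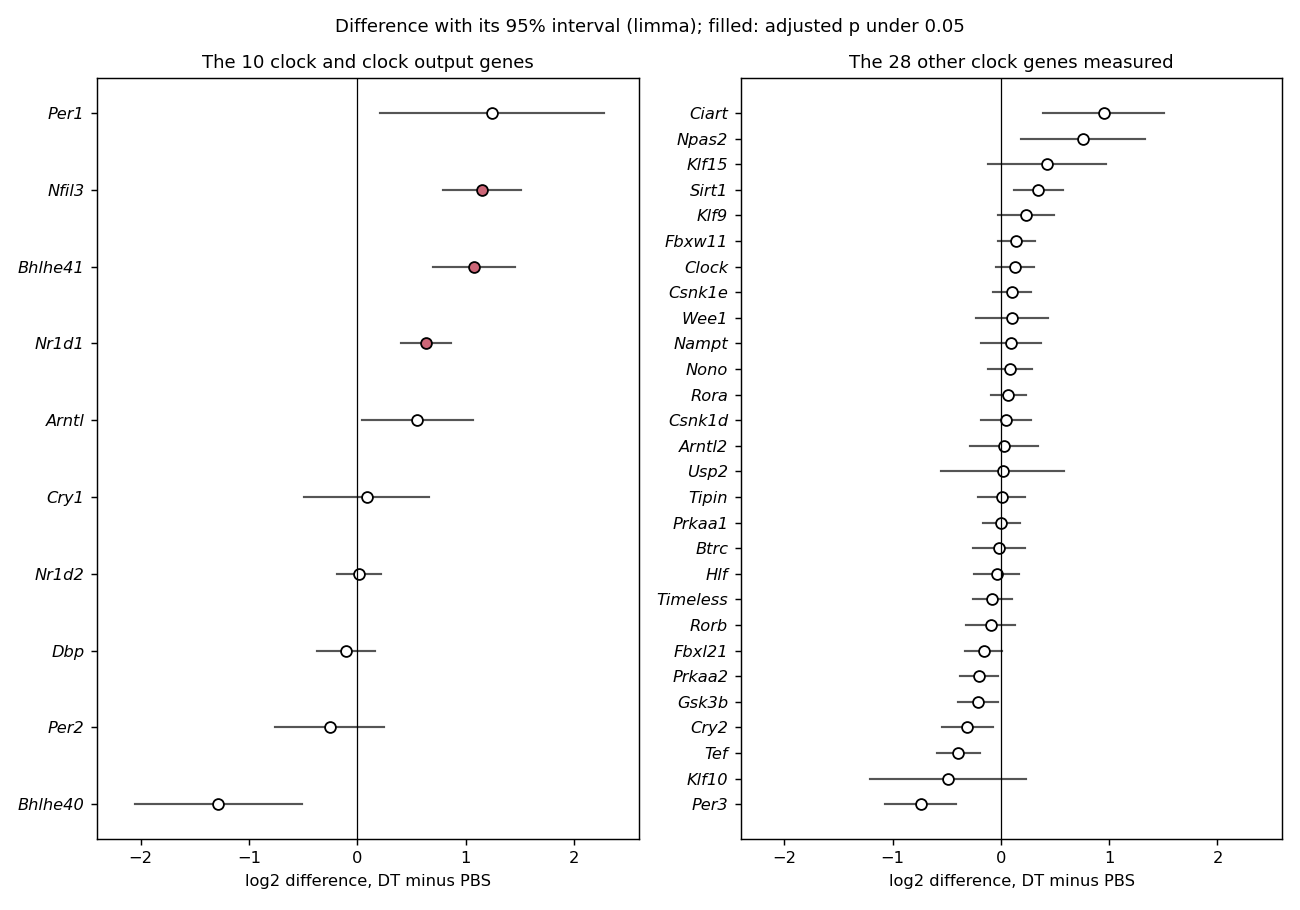
Log2 difference, DT minus PBS (horizontal axis), with its 95% interval from limma for the 10 clock genes (left) and the 28 other clock genes measured (right), each from 3 mice per group. Filled points have an adjusted p under 0.05, which are Nfil3, Bhlhe41 and Nr1d1, and the widest intervals are those of Per1 and Bhlhe40.

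With each mouse left out in turn, Nr1d1 lost its call every time (adjusted p from 0.0527 to 0.117), although its difference stayed between 0.57 and 0.71. Nfil3 lost its call without DT 9 (adjusted p = 0.0683), DT 16 (adjusted p = 0.0763) or PBS 20 (adjusted p = 0.055) and kept it without the other mice. Bhlhe41 lost its call without DT 5, DT 9, DT 16 or PBS 20 (adjusted p up to 0.109) and kept it without PBS 12 or PBS 18. Bhlhe40 was not called with any mouse left out, and its adjusted p ran from 0.07 without PBS 18 to 0.361 without DT 16.

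**Figure D4:**
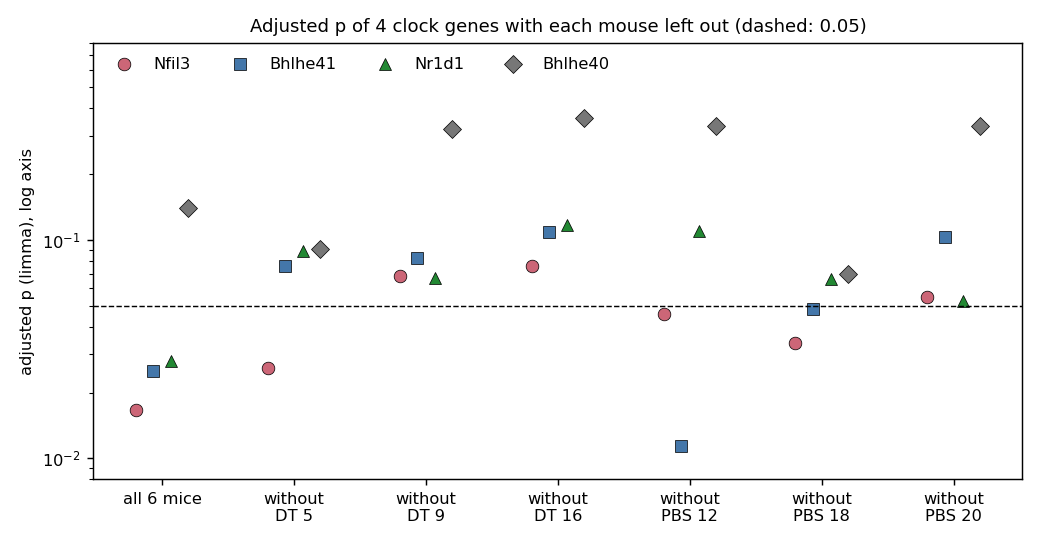
Adjusted p (limma, log axis) of Nfil3, Bhlhe41, Nr1d1 and Bhlhe40 with all 6 mice and with each mouse left out, the dashed line marking 0.05. Nr1d1 is above the line in every fit with 1 mouse left out and Bhlhe40 in all fits, while Nfil3 and Bhlhe41 lie on both sides.

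Other signals moved with the groups. In whole tissue, fewer cells of a type and less RNA per cell cannot be told apart. Macrophage markers rose in 2 of 7 cases (Cd68 and Itgam), and their mean log2 signal was 6.82 to 7.19 in PBS mice and 7.70 to 7.98 in DT mice. Fibroblast markers rose in 3 of 4 cases (mean 9.10 to 9.44 in PBS mice, 9.97 to 10.13 in DT mice) and proliferation markers in 3 of 3 (4.80 to 5.12 and 6.42 to 6.64). The part of these cells in the rise of Nfil3, Bhlhe41 and Nr1d1 was not tested. Brown adipocyte markers were called in 0 of 8 cases by limma, with 2 at an unadjusted p under 0.05. The 2 were Dio2 (difference 0.4004, adjusted p = 0.2778) and Prdm16 (-0.2574, adjusted p = 0.2991). The markers had means of 12.24 to 12.36 in PBS mice and 12.33 to 12.43 in DT mice, so the labelled tissue had its defining genes. Ucp1, a known target of REV-ERB alpha, differed by -0.0104 (limma, adjusted p = 0.973), and its groups overlapped. Its signal was near the highest on these arrays, and whether a difference could show there was not tested. The part of Nr1d1 in the level of Ucp1 was not tested. None of the T, regulatory T, B, NK, neutrophil or endothelial markers was called. Cd4 (-0.30) and Kdr (-0.24) were lower and Csf3r (0.57) higher at an unadjusted p under 0.05 (limma). Above the median feature signal stood 0 of 5 T, 0 of 5 neutrophil and 0 of 4 NK markers. For regulatory T and B cell markers it was 1 of 4 and 1 of 3, so missing calls say little here. Foxp3 itself was weak and not called (4.56 ± 0.16 in PBS and 4.40 ± 0.10 in DT, n = 3, adjusted p = 0.587). The paper reports that DT depleted Foxp3-expressing cells, measured by real-time RT-PCR of BAT and spleen. Array signals do not reach 0, so no marker was absent in that sense.

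Skeletal muscle markers (Acta1, Ckm, Myh4, Tnnt3 and Mylpf) set mice apart within both groups. Their mean log2 signal was 9.40 in DT 5, 9.57 in DT 9 and 9.42 in PBS 18, but 6.37 in DT 16, 7.63 in PBS 12 and 8.19 in PBS 20. With that mean as a covariate, chosen after seeing the data, the differences of Nfil3, Bhlhe41 and Nr1d1 were 1.15, 1.08 and 0.64, and Nr1d1 lost its call (adjusted p = 0.0539).

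Of the signals known to act on Per1 and other clock genes, glucocorticoid-induced genes were all 12 positive in difference (median 0.55), with 1 called, Lcn2 (difference 1.53), which is also an acute phase gene. Cdkn1a, a cell cycle inhibitor, differed by 0.81 (adjusted p = 0.115) and Angptl4, an inhibitor of lipoprotein lipase, by 0.71 (adjusted p = 0.146). Tsc22d3, Sgk1 and Zbtb16 of the same list differed by 0.196, 0.152 and 0.291 (limma, adjusted p = 0.7294, 0.7355 and 0.8286), and their groups overlapped. In the other 9 genes all DT mice lay above all PBS mice. Fkbp5, 1 of these 9, was 2.83-fold higher without being called (adjusted p = 0.2131). Of 14 immediate early genes, which are switched on by growth factor, stress and cAMP signals, 5 rose (Atf3, Egr1, Jun, Nr4a3 and Egr2). Among all features 1.29% were called higher. The median difference of the 14 was 0.75. Nr4a2 and Sik1 were the 2 with a negative difference (-0.38 and -0.13, limma adjusted p = 0.3784 and 0.77). Crem differed by 0.10 (adjusted p = 0.7571), and the groups overlapped in all of Nr4a2, Sik1 and Crem. The part of the glucocorticoid-induced and immediate early genes in the clock gene differences was not tested.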

How the data were processed

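RNA of BAT from 3 DT and 3 PBS mice was measured on Affymetrix arrays, 1 per mouse, after biotin labelling. The authors deposited log2 values for each Entrez gene, obtained with a custom chip definition file and quantile normalization; RMA, the robust multi-array average, is credited in the submitters' processing notes. Sorted values agreed between arrays within 0.00179 (range 3.01 to 14.1), so they carry relative changes only, and background compresses differences of weak genes. Arrays have no read depth, and their number limits the precision. The genome build behind the values is not given in the sources used here. The platform annotation paired 23185 of the 25206 features with 1 symbol and 2021 with none, and updating by Entrez number changed none.

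Groups came from the sample titles. Arrays of a group were taken as biological replicates, as the design text calls them. DT was compared with PBS on the deposited log2 values with limma 3.58.1 in R 4.3.3 (lmFit and eBayes, 2-sided, Benjamini-Hochberg over all features, threshold 0.05), tested on simulated data. The study's own mixed-model analysis of variance is not specified closely enough to repeat. The clock genes, gene lists and pairs were chosen with earlier results of these data known, so no p was adjusted over a list alone and no list was tested as a set. All 10 clock genes were named; of the other clock genes those with the smallest p and 7 fixed ones; of the context lists the 3 with the smallest p. Egr2, Nr4a3, Prkaa2, Gsk3b, Timeless, Klf15, Tsc22d3, Sgk1, Zbtb16, Fkbp5, Nr4a2, Sik1 and Crem fall outside this rule and were named after their values were seen. The values of Ucp1, Dio2 and Prdm16 were also seen before these genes were named. Promoter windows were searched with Python 3.11.15. Alternatives were other scalings, filters, priors, weights, thresholds, leaving out each array and, added after seeing the data, a skeletal muscle covariate.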

Additional observations from a re-analysis of the deposited data

How the results depend on the processing

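All 3 rising clock genes kept their direction under every alternative run. Their differences with 1 array left out ran from 1.02 to 1.27 for Nfil3, from 0.95 to 1.27 for Bhlhe41 and from 0.57 to 0.71 for Nr1d1. The count of called clock genes, 3 with all arrays, was between 0 and 2 with 1 array left out and 0 in a per-gene linear model without moderation (differences unchanged at 1.15, 1.08 and 0.64), which called 0 of all features but put 4 clock genes and 2986 features at an unadjusted p under 0.05. Where it was 0 without DT 9, DT 16 or PBS 20, the unadjusted p was under 0.05 for 4, 4 and 5 of them. Nr1d1 also lost its call with the muscle covariate (0.64) and did not reach 2-fold (0.64), whereas Bhlhe40 (-1.28) met the criterion of 2-fold and an unadjusted p under 0.01. The sign of uncalled small differences turned with 1 array left out for Cry1 (-0.17 to 0.34), Nr1d2 (-0.036 to 0.067) and Nr1d1 minus Arntl (-0.14 to 0.24). Over all features, 436 calls became 659 with an intensity trend and robust prior, 736 at an adjusted p under 0.1, 145 with 2-fold added, 177 with 2-fold and an unadjusted p under 0.01, and 135 to 374 with 1 array left out. Of the other clock genes 1, Per3, was called with either filter on dim features, the intensity trend or array weights, and 2, Per3 and Tef, at an adjusted p under 0.1. No other clock gene was called with 1 array left out, under the other scalings, without moderation or with the muscle covariate. The causes were not tested. No paired analysis was possible because the groups share no animal number.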

Other observations

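For each of the 3 clock genes that rose, the 3 features most like it over the 6 arrays (Pearson r, among 6187 named features above the median signal and spread) were listed as a description. Since the 6 arrays hold both groups, r contains the difference between them. Nfil3 was followed most closely by Iqgap1 (r = 0.998), Sirpa (0.994) and B4galnt1 (0.992), with 355 features above 0.9. Nr1d1 was followed by Bend3 (0.998), Adcy7 (0.986) and Tlr7 (0.985), with 259 above 0.9, and Bhlhe41 by Tor3a (0.994), Gsdmd (0.988) and Sfxn3 (0.987), with 197. No clock gene was among these 9, which with 6187 candidates says nothing about the clock.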
